A study of Mus musculus with 9 samples.

Results

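The Hox genes are the homeobox genes that pattern the body from head to tail. The mouse has them in 4 clusters, HoxA to HoxD, and numbers them from 1 at the anterior end to 13 at the posterior end. On GRCm38 (mm10) HoxA lies on chromosome 6, HoxB on 11, HoxC on 15 and HoxD on 2. The genes described here are all rows of the count table whose symbol is Hoxa, Hoxb, Hoxc or Hoxd followed by a number, and nothing measured entered that choice. They were 39 of the 27179 genes in the table. RNA was sequenced from whole mandibles, teeth included, of 6-month-old male C57BL/6 mice, 5 wild type (WT) and 4 carrying the label FcγRIIB-/-, a deletion of the inhibitory Fc receptor that serves as a model of lupus. The labels name no treatment, each library is 1 labelled sample, and the question was which transcripts differ between the genotypes in a jaw that loses bone.

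A Hox protein binds DNA through its homeodomain, usually together with TALE homeodomain partners of the PBX, MEIS and PKNOX families. Genes with the same number in different clusters are paralogs, and within a cluster the genes lie in the order in which they are expressed along the body axis. The neural crest that builds the lower jaw migrates from levels of the head where Hox genes are silent, and jaw identity there depends on other homeobox genes such as the DLX and MSX families. Haematopoietic cells, muscle of the trunk and limbs, and skin are among the adult tissues in which various Hox genes are known to stay active.

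Close paralogs and overlapping gene models could share reads, so the transcripts of the 4 Hox genes with enough reads for a test were compared with all other annotated transcripts over the 75 bases of a read. No 75-base stretch of Hoxb4, Hoxd8 or Hoxd9 occurred in another annotated gene. Of the 2486 such stretches of Hoxd4, 1010 (40.6%) also belonged to Gm28230, a gene model on the same strand that runs through Hoxd4, so the assignment of its reads depends on how the authors' annotation and counter treated that overlap. Gm28230 has no row in the count table. On the same strand, 314 of the 2894 stretches of the neighbouring Hoxd3 also occurred in annotated transcripts of Hoxd4, although not in the Hoxd4 transcript used here, so reads of Hoxd3 and Hoxd4 may not be fully separated.

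The 9 libraries held between 21453880 and 28991631 counts. Libraries labelled FcγRIIB-/- had 25.97 to 32.13 CPM (read counts relative to the TMM-scaled library size) of Fcgr2b, the gene named in the genotype, against 17.04 to 38.28 CPM in WT, so it was not lower there (log2 fold change 0.21, SE 0.20, edgeR quasi-likelihood test with Benjamini-Hochberg adjustment, adjusted p = 0.442). Which part of the gene was deleted is not given in the sources used here, and a count over the whole gene does not show it, so the groups are named by their labels. The mandible's own markers were abundant in every library, the 10 bone and tooth markers summing to between 37019 and 93395 CPM. In this fit 14% of the 16329 genes tested were higher in the libraries labelled FcγRIIB-/- and 19.3% were lower.

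Most Hox genes gave at least a few reads, and few gave many. Of the 39 Hox genes, 29 (74.4%) had at least 1 count in at least 1 library, against 80.8% of all genes in the table and 6.63% of the 1101 olfactory receptor genes, sensory receptors chosen for comparison after the Hox values were seen. With a minimum of 10 counts over all libraries, 46.2% of the Hox genes and 0.817% of the olfactory receptor genes were present. The 10 Hox genes at 0 in all 9 libraries were Hoxa11, Hoxa13, Hoxb1, Hoxc10, Hoxc11, Hoxc12, Hoxd1, Hoxd11, Hoxd12 and Hoxd13. All but Hoxb1 and Hoxd1 bear a posterior number from 10 upwards. A count of 0 allows up to 3 counts, which was between 0.105 and 0.152 CPM in these libraries and covers counting error only.

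Another 11 genes had between 1 and 9 counts in all, namely Hoxa2, Hoxa6, Hoxa10, Hoxb5, Hoxb6, Hoxb7, Hoxb8, Hoxb9, Hoxb13, Hoxc8 and Hoxc9. None of these exceeded 3 counts in any library. Between 10 and 99 counts were found for 14 genes, and 100 or more for 4 genes, Hoxb4, Hoxd4, Hoxd8 and Hoxd9. Only these 4 reached 10 counts in each of the 9 libraries, and only these passed the filter on low counts, that is 10.3% of the Hox genes against 60.1% of all genes.

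Somewhat more Hox genes were detected in WT. In WT, 27 Hox genes had a count in at least 1 library and 11 in all 5 libraries, and in the libraries labelled FcγRIIB-/- these numbers were 23 and 10. Hox genes found only in WT numbered 6, and those found only in the other group numbered 2, all 8 of them with at most 4 counts in a library. Detected genes per library numbered 22, 18, 17, 19 and 19 in WT mice 1 to 5, and 17, 15, 15 and 16 in mice 1 to 4 labelled FcγRIIB-/-. After scaling every library down to the depth of the shallowest, the expected numbers were 16.4 to 20.7 in WT and 14.8 to 16.0 in the other group, and these ranges do not overlap. For comparison, 29.6% of all genes tested had groups that did not overlap in CPM, and detection was not compared in this way for other low-count genes. The groups differ in number of mice, and no test was made of these detection counts.

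**Figure D1:**
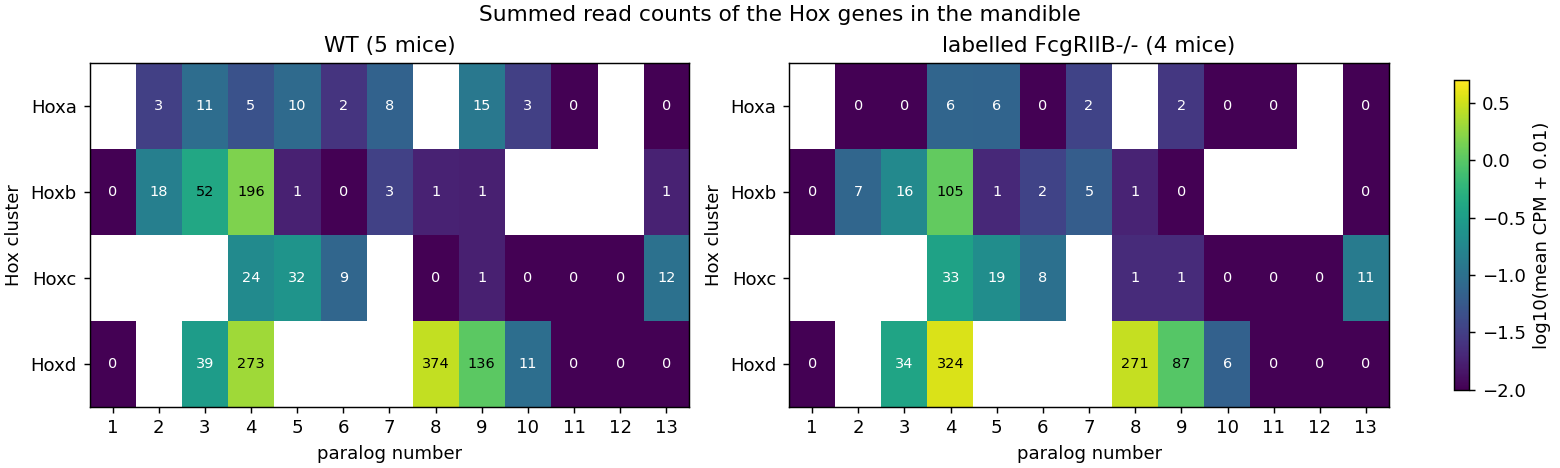
Summed read counts of the Hox genes over the 5 WT libraries (left) and the 4 libraries labelled FcγRIIB-/- (right), by cluster (vertical axis) and paralog number (horizontal axis), with the mean CPM as colour on a log10 scale and white where the mouse has no such gene or none is shown. In both groups the reads gather in Hoxb4, Hoxd4, Hoxd8 and Hoxd9, and numbers 11 and 12 are at 0 in all clusters.

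Reads from the HoxD cluster made up most of the Hox signal. All Hox genes together gave 298, 240, 275, 222 and 213 counts in WT mice 1 to 5 and 270, 204, 229 and 248 counts in mice 1 to 4 labelled FcγRIIB-/-, or 8.17 to 11.6 CPM before TMM scaling. Hoxb4, Hoxd4, Hoxd8 and Hoxd9 held between 77.1% and 85.5% of them in every library. HoxD genes held 70.7% of the 2199 Hox counts, HoxB genes 18.6%, HoxC genes 6.87% and HoxA genes 3.77%. By position, the central genes, numbered 4 to 8, held 78.3%, and paralog group 4 alone held 43.9%.

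The summed level of all 39 genes was 9.50 ± 1.24 CPM (SD, n = 5) in WT and 10.3 ± 1.52 CPM (SD, n = 4) in the libraries labelled FcγRIIB-/-, with overlapping ranges. The clusters did not all lean the same way. HoxD summed to 6.34 ± 1.08 CPM in WT and 7.84 ± 1.57 CPM in the other group, and HoxC to 0.593 ± 0.194 and 0.786 ± 0.0541 CPM, again with overlapping ranges. HoxB summed to 2.09 ± 0.492 CPM in WT and 1.46 ± 0.299 CPM in the other group, also overlapping. HoxA was the cluster whose groups did not overlap, at 0.273 to 0.771 CPM in WT and 0.127 to 0.253 CPM in the libraries labelled FcγRIIB-/-, on 64 and 19 counts in all. These sums are given as descriptions without a test. Of all genes tested, 29.6% had groups that did not overlap in CPM, a share over single genes past the filter. No HoxA gene passed that filter, and overlap was not compared in this way for other sums of low-count genes.

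Per transcript length, the Hox genes lay far under the homeobox genes of the jaw. The median level of the 39 Hox genes was 0.0176 RPKM, the CPM divided by the transcript length in kilobases, in WT and 0.00559 RPKM in the libraries labelled FcγRIIB-/-. The median of 20 homeobox genes known from jaw and tooth development was 22.4 and 22.8 RPKM, and even the lowest of these genes in WT, at 1.45 RPKM, stood above the highest Hox gene there. The 4 leading Hox genes came, in WT, in the order Hoxd8 at 1.08 ± 0.142, Hoxd4 at 0.807 ± 0.180, Hoxb4 at 0.583 ± 0.124 and Hoxd9 at 0.484 ± 0.154 RPKM (SD, n = 5). Across mice the ranges of Hoxd8 and Hoxd4 overlapped, as did those of Hoxd4 and Hoxb4 and of Hoxb4 and Hoxd9. The genes were read in the same mice, however, and the CPM of Hoxd8 was above that of Hoxd4 in every WT mouse. The order of the genes was not tested. In the libraries labelled FcγRIIB-/- Hoxd4 came first, at 1.39 ± 0.405 RPKM, followed by Hoxd8 at 1.11 ± 0.178, Hoxd9 at 0.446 ± 0.0830 and Hoxb4 at 0.438 ± 0.0450 RPKM (SD, n = 4). Hoxb3 and Hoxd3 came next in WT, at 0.126 and 0.100 RPKM. The 4 leading genes ranked low among all tested genes by mean CPM, from the 7.88th percentile for Hoxd9 to the 17.4th for Hoxd8.

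**Figure D2:**
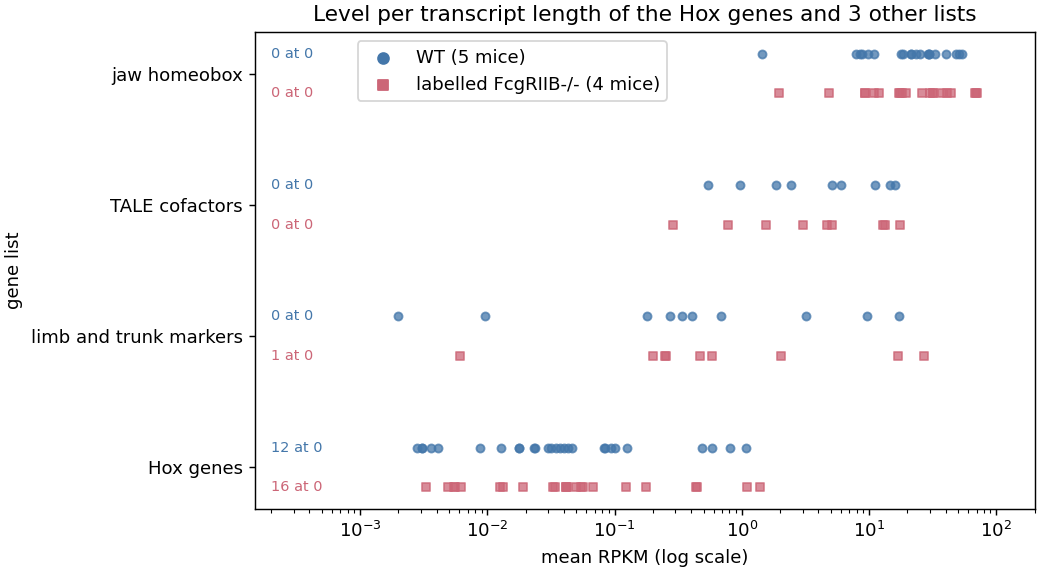
Mean RPKM (log scale) of each Hox gene and of each gene in 3 other lists, with circles for WT (5 mice) and squares for the libraries labelled FcγRIIB-/- (4 mice) and the number of genes at 0 written at the left. The highest Hox genes lie near 1 RPKM, under the median of the jaw homeobox genes, 22.4 RPKM in WT, and that of the TALE cofactors, 5.13 RPKM.

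Hoxd4, the group 4 gene of the HoxD cluster known from hindbrain and neck patterning, was the 1 Hox gene called between the groups. Its counts were 72, 44, 60, 60 and 37 in WT mice 1 to 5 and 88, 71, 65 and 100 in mice 1 to 4 labelled FcγRIIB-/-. As levels these were 2.61, 1.77, 2.31, 2.20 and 1.44 CPM against 3.08, 3.28, 2.75 and 5.07 CPM. The lowest mouse labelled FcγRIIB-/- lay above the highest WT mouse, and mouse 4 of that group stood well above the other 3. The mean rose from 2.07 ± 0.461 CPM (SD, n = 5) to 3.55 ± 1.04 CPM (SD, n = 4), a log2 fold change of 0.77 with an SE of 0.23 and an adjusted p of 0.0285 by the same edgeR test, adjusted over the 16329 genes. The exact two-sided permutation test of this gene alone, over the 126 splits of the 9 mice, gave p = 0.0159. The smallest possible p was 0.00794, and no adjustment over genes was made. Without mouse 4 labelled FcγRIIB-/- the log2 fold change was 0.55 and the adjusted p 0.0828, so the call rests on that library. It was 1 call among the 4 Hox genes tested, where 14% of all genes tested were higher and 19.3% lower. For comparison, 29.6% of all genes tested had groups that did not overlap in CPM.

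Hoxb4, its paralog in the HoxB cluster and a gene known from haematopoietic stem cells, had 48, 48, 34, 33 and 33 counts in WT mice 1 to 5 and 30, 25, 30 and 20 in mice 1 to 4 labelled FcγRIIB-/-. Its levels were 1.74, 1.93, 1.31, 1.21 and 1.29 CPM against 1.05, 1.16, 1.27 and 1.01 CPM. WT mice 1 and 2 were the highest and the other WT mice overlapped with the other group. The log2 fold change was -0.41 with an SE of 0.21 and did not pass the test (edgeR adjusted p = 0.158). The exact two-sided permutation test of this gene alone, with no adjustment over genes, gave p = 0.0476. The sign of the Hoxb4 difference was opposite to that of Hoxd4, and the difference between the paralogs was not itself tested.

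Hoxd8, the HoxD gene next to Hoxd9, had the highest counts of all Hox genes in WT, 76, 71, 89, 65 and 73 in mice 1 to 5, and 84, 53, 64 and 70 in mice 1 to 4 labelled FcγRIIB-/-. The groups overlapped almost wholly, with means of 2.85 ± 0.375 and 2.91 ± 0.469 CPM and a log2 fold change of 0.03 with an SE of 0.17 (edgeR adjusted p = 0.911, exact permutation p = 0.778). Hoxd9, known from limb and trunk patterning, had 38, 22, 36, 18 and 22 counts in WT mice 1 to 5 and 20, 22, 23 and 22 in mice 1 to 4 labelled FcγRIIB-/-. Its WT values spread from 18 to 38 counts and enclosed those of the other group (log2 fold change -0.13, SE 0.28, edgeR adjusted p = 0.749, exact permutation p = 0.746). Hoxd4 thus passed the test while its neighbours Hoxd8 and Hoxd9 on the same chromosome did not, but a difference between these genes was not tested.

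**Figure D3:**
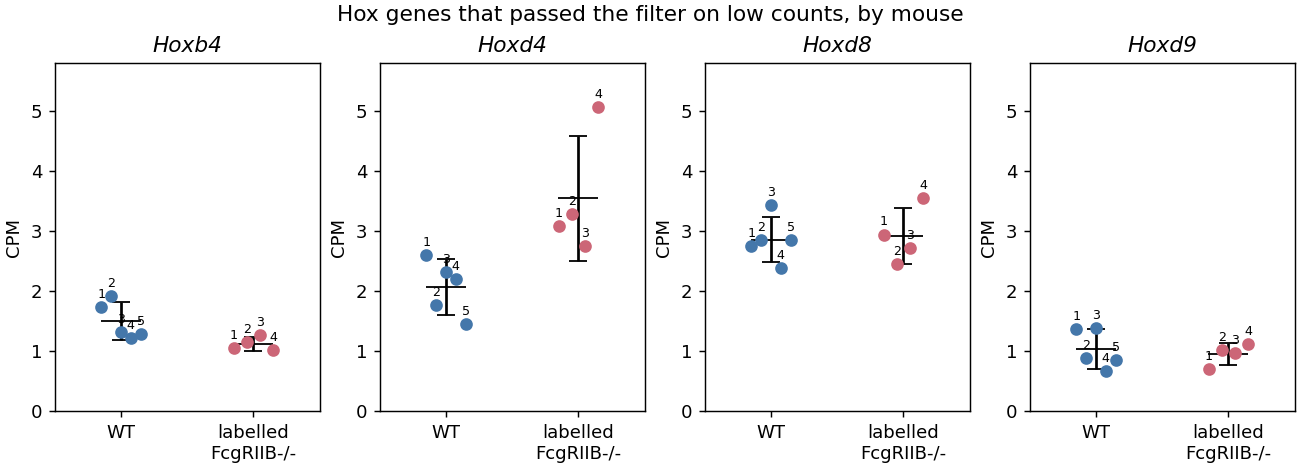
CPM of the 4 Hox genes that passed the filter on low counts in each mouse, with the mouse number beside each point and the mean ± SD in black, for WT (5 mice) and the libraries labelled FcγRIIB-/- (4 mice). For Hoxd4 the points of the groups do not overlap and mouse 4 labelled FcγRIIB-/- is at 5.07 CPM, while the groups overlap for Hoxb4, Hoxd8 and Hoxd9.

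The Hox genes under the filter are given by their counts, since the test did not cover them. Hoxb3, the neighbour of Hoxb4, had 7, 15, 11, 6 and 13 counts in WT mice 1 to 5 and 2, 5, 7 and 2 in mice 1 to 4 labelled FcγRIIB-/-. The antisense gene model Hoxb3os covers 61.2% of the 75-base stretches of Hoxb3 and 56.6% of those of Hoxb2, and the strand setting of the counting is not given in the sources used here. Hoxb2 had 5, 4, 0, 3 and 6 counts in WT and 3, 0, 4 and 0 in the other group. Hoxd3, the neighbour of Hoxd4, with 85.3% of its stretches in other gene models, Hoxd4 among them, had 3 to 12 counts in WT and 6 to 11 in the other group.

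Among the HoxC genes, Hoxc4, a paralog of Hoxd4, had 4, 6, 6, 3 and 5 counts in WT mice 1 to 5 and 13, 9, 2 and 9 in mice 1 to 4 labelled FcγRIIB-/-, so mouse 3 was lower than any WT mouse and the other 3 were higher. Hoxc5 ranged from 4 to 10 counts in WT and from 2 to 7 in the other group. Hoxc13, known for its part in hair and nail keratin expression and the 1 Hox gene numbered above 10 to have more than 1 count, had 1 to 5 counts in both groups and was present in all 9 libraries. Hoxc6 had 0 to 5 counts in both groups, and Hoxd10 had 0 to 6 in WT and 0 to 4 in the other group.

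The HoxA genes were all low. Hoxa3 had 3, 2, 1, 4 and 1 counts in WT mice 1 to 5 and 0 in all 4 libraries labelled FcγRIIB-/-. Its WT mean, 0.0827 CPM, rested on 11 counts in all, so no fold is given. Hoxa9, known from myeloid progenitors, had 4, 0, 3, 6 and 2 counts in WT and 2, 0, 0 and 0 in the other group. Hoxa7 had 1 to 3 counts in each WT library and 2, in mouse 4 only, in the other group. Hoxa4 and Hoxa5 had at most 3 counts in any library.

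With the filter on low counts left out, the 29 Hox genes with a count entered the test, in which 23.3% of 21948 genes were called in either direction. Hoxd4 was again higher (log2 fold change 0.76, edgeR adjusted p = 0.0358) and Hoxa3 was lower (adjusted p = 0.0280, on 11 counts in all). The other 27 were not called. Hoxb3 had an adjusted p of 0.110, Hoxa9 of 0.151 and Hoxc4 of 0.196 in that fit.

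**Figure D4:**
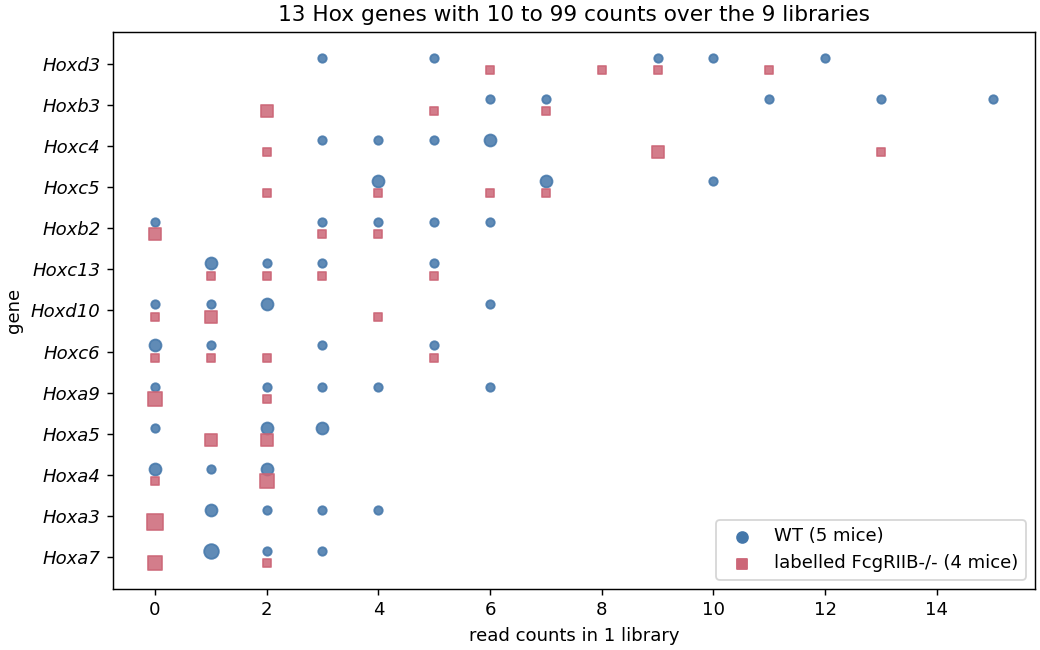
Read counts per library (horizontal axis) of 13 of the 14 Hox genes with 10 to 99 counts over the 9 libraries (vertical axis), with circles for WT (5 mice), squares for the libraries labelled FcγRIIB-/- (4 mice) and larger marks where several libraries have the same count. Hoxa3 is at 0 in all 4 libraries labelled FcγRIIB-/- and at 1 to 4 in WT, and the other 12 genes shown all have overlapping counts.

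The partners of the Hox proteins had a median level well above that of the Hox genes, though Pbx4 (0.541 RPKM) and Meis2 (0.960 RPKM) lay under Hoxd8 in WT. All 9 TALE genes passed the filter, with a median of 5.13 RPKM in WT and 4.70 RPKM in the libraries labelled FcγRIIB-/-. Of these, none was higher and 1 was lower in the latter, where 14% of all genes tested were higher and 19.3% lower. That gene was Pknox1, which fell from 25.7 ± 0.909 to 21.8 ± 2.06 CPM (log2 fold change -0.23, SE 0.08, edgeR adjusted p = 0.0380), a call lost under 10 of 16 alternative settings. Meis1, a partner of HOXA9 in myeloid cells, was at 6.17 ± 1.53 and 5.21 ± 1.15 CPM (edgeR adjusted p = 0.384). The median log2 fold change over the 9 genes was -0.19, against 0.01 over all genes tested.

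Of 16 genes known to switch Hox clusters on, 13 passed the filter, 2 were higher and 4 were lower. The shares over all genes tested were 14% higher and 19.3% lower. Men1, which tethers the MLL histone methyltransferase, had a log2 fold change of 0.19 (SE 0.06, edgeR adjusted p = 0.0406) and Psip1, its chromatin partner, of 0.31 (SE 0.10, adjusted p = 0.0413). The genes that fell were Kat6a (-0.48, adjusted p = 0.00433), a histone acetyltransferase, Aff1 (-0.35, adjusted p = 0.00362), an elongation factor, Kdm6a (-0.34, adjusted p = 0.00768), which removes the Polycomb mark, and Dot1l (-0.31, adjusted p = 0.0286), a histone methyltransferase. The calls on Men1 and Dot1l were each lost under 6 of 16 alternative settings and that on Psip1 under 9, among them without mouse 3 labelled FcγRIIB-/-, where its log2 fold change was 0.18. Kmt2a, which encodes MLL itself, did not pass (log2 fold change -0.16, adjusted p = 0.111). The CDX genes, which open the clusters in the embryonic trunk, were hardly seen, with no count of Cdx2, 1 of Cdx1 and 30 of Cdx4 over the 9 libraries.

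Polycomb proteins hold silent Hox clusters closed, and all 20 of the genes listed for them were expressed. Ring1, a ubiquitin ligase of the complex, was higher (log2 fold change 0.35, SE 0.09, edgeR adjusted p = 0.0121). Ezh2, the histone methyltransferase that is most active in dividing cells, was lower (log2 fold change -0.45, SE 0.09, adjusted p = 0.00387), and its cofactor Jarid2 was lower too (-0.22, SE 0.07, adjusted p = 0.0341), though the call on Jarid2 was lost under 10 of 16 alternative settings. The other 17 did not pass, among them the core subunits Suz12 (-0.15, adjusted p = 0.146) and Eed (0.09, adjusted p = 0.494). The list's median log2 fold change was -0.04. For comparison, 14% of all genes tested were higher and 19.3% lower.

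The other transcripts of the Hox clusters that had a row summed to 0.314 CPM in WT and 0.264 CPM in the libraries labelled FcγRIIB-/-. Those without a row were not measured, so the sum does not cover all of them. Of 23 noncoding RNAs, microRNAs and EVX genes listed for the clusters, 14 had a row in the table, 10 of these were at 0 in all libraries and none passed the filter. Poly(A) selection and the size of mature microRNAs limit what such libraries can show of the latter. Counts were found for Hoxd3os1, antisense to Hoxd3, with 37 in all, Mira with 16, Evx1 with 11 and Hoxa11os with 1.

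The genes that flank the clusters were mostly expressed, and called in both directions. Of 19 in the table, 17 passed the filter, 2 were higher and 6 lower, where 14% of all genes tested were higher and 19.3% lower. Beside HoxD, where Hoxd4 was higher, Atp5g3, a subunit of the mitochondrial ATP synthase, was higher (log2 fold change 0.61, SE 0.08, edgeR adjusted p = 7.8e-04), Lnpk, a shaper of the endoplasmic reticulum, was lower (-0.43, SE 0.08, adjusted p = 0.00385) and Mtx2 did not pass (0.10, adjusted p = 0.296). Beside HoxC, Nfe2, a factor of the erythroid and megakaryocyte lineages, fell by 3.04 on the log2 scale (SE 0.25, adjusted p = 7.6e-05), and Atf7 (-1.27), Cbx5 (-0.37) and Calcoco1 (0.21, higher) passed as well. Beside HoxA, Skap2 (-0.63) and Snx10 (-0.37) were lower. The calls on Calcoco1, Snx10 and Skap2 were lost under 8, 5 and 2 of 16 alternative settings. Beside HoxB, none of the genes tested was called.

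Few homeobox genes of the jaw were called. Of the 20, 2 were higher and 2 lower, where 14% of all genes tested were higher and 19.3% lower. Dlx3, a gene of tooth and bone matrix-forming cells, was higher (log2 fold change 0.44, SE 0.12, edgeR adjusted p = 0.0219). Pax9, needed for tooth buds, was lower (-0.70, SE 0.09, adjusted p = 7.2e-04), and so was Prrx1, a gene of jaw mesenchyme (-0.26, SE 0.09, adjusted p = 0.0404), a call lost under 12 of 16 alternative settings, among them without mouse 4 labelled FcγRIIB-/-, where it was -0.17. The other 16 did not pass, and the median log2 fold change over the 20 was 0.13.

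Markers of tissues that could bring Hox reads into a whole mandible differed strongly between the groups, and their part in the Hox counts was not tested. In bulk tissue, fewer cells of a type and less RNA per cell cannot be told apart. Most blood markers were lower in the libraries labelled FcγRIIB-/-, where 19.3% of all genes tested were. All 12 myeloid markers were lower, their sum being 1208 to 3613 CPM in WT and 149 to 445 CPM in the other group, and so were all 11 erythroid markers in the table, at 2554 to 2864 and 345 to 809 CPM. Of the B lineage markers 9 of 10 were lower (45.4 to 110 CPM and 13.8 to 32.0 CPM), as were all 6 mast cell markers tested of 7 (28.7 to 47.9 and 8.97 to 14.8 CPM). Among T and NK cell markers, 1 of 8 tested was lower (10.9 to 55.9 and 6.61 to 11.8 CPM). No marker in these lists was at 0 in all 9 libraries.

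Markers of haematopoietic progenitors, the cells in which Hoxb4 and Hoxa9 are best known, were lower for 6 of 14 genes, their sum being 386 to 435 CPM in WT and 286 to 338 CPM in the other group. Myb fell by 2.24 on the log2 scale (SE 0.24, edgeR adjusted p = 2.8e-04) and Tal1 fell by 1.85 (SE 0.13, adjusted p = 4.5e-05), while Kit (-0.07, adjusted p = 0.665) and Cd34 (-0.11, adjusted p = 0.261) did not pass. Hoxb4, Hoxd4, Hoxd8 and Hoxd9, which hold most of the Hox counts, had log2 fold changes of -0.41, 0.77, 0.03 and -0.13. The median was -3.02 for the myeloid, -2.92 for the erythroid, -0.26 for the progenitor and -2.35 for the B lineage markers. It was -1.57 for mast cell, -1.21 for T and NK cell, -5.06 for keratinized epithelium and 0.86 for skeletal muscle markers. Endothelial, bone and tooth, limb and trunk, and neuron and glia markers had medians of 0.14, 0.33, 0.04 and 0.11. Which cells gave the Hox reads was not tested.

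Other tissues went the other way or were mixed, beside 14% of all genes tested that were higher and 19.3% that were lower. The skeletal muscle markers were higher for 4 of 8 genes, summing to 6139 to 14286 CPM in WT and 14517 to 25252 CPM in the libraries labelled FcγRIIB-/-. Of the markers of keratinized epithelium 6 of 8 were lower and 1, Krt5, was higher (5561 to 20419 and 4335 to 5425 CPM). A list of 10 genes was drawn up for limb and trunk, the tissues where posterior Hox genes are known. Of these, 8 were tested, Isl1 was higher (log2 fold change 0.80, SE 0.17, edgeR adjusted p = 0.00535) and Shox2 lower (-0.63, SE 0.16, adjusted p = 0.0134). The limb markers Tbx5 and Lmx1b had 1 and 9 counts over the 9 libraries, and Tbx5 was at 0 in all libraries labelled FcγRIIB-/-. The list summed to 72.4 to 120 CPM in WT and 136 to 178 CPM in the other group, carried mainly by Tbx15 and Isl1. With Tbx5 and Lmx1b hardly seen, this sum does not measure limb or trunk tissue, whose presence was not tested. Endothelial markers were called for 1 of 8 (533 to 611 and 580 to 671 CPM), bone and tooth markers for 5 of 10 (3 higher, 2 lower), and neuron and glia markers for 1 of 7 tested (303 to 823 and 509 to 857 CPM).

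The call on Hoxd4 held under other scalings of the libraries, without the filter on low counts and in DESeq2, where the adjusted p was 0.00813, and was lost under a few other settings. With any 1 of the other 8 mice left out, its log2 fold change lay between 0.69 and 0.89 and its adjusted p between 0.0246 and 0.0480. With any 1 of the mice labelled FcγRIIB-/- left out, 6 Hox genes passed the filter, which depends on the size of the smaller group. Hoxc4 was among them only without mouse 3, the 1 with 2 counts, and was then called higher (log2 fold change 1.25, adjusted p = 0.0209).

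**Figure D5:**
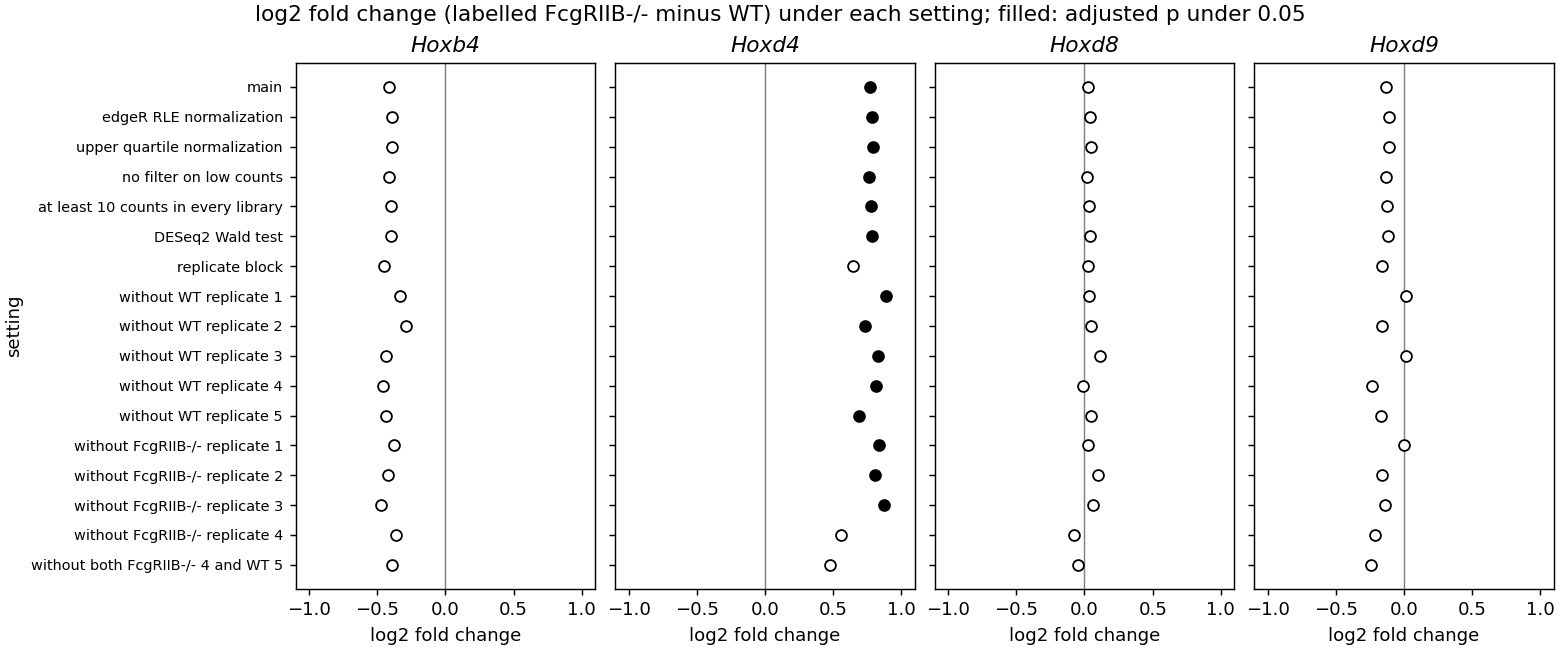
log2 fold change (libraries labelled FcγRIIB-/- minus WT, horizontal axis) of the 4 tested Hox genes under each processing setting and with single mice left out (vertical axis), with filled points where the adjusted p was under 0.05. Hoxd4 stays between 0.48 and 0.89, filled except with the replicate block, without mouse 4 labelled FcγRIIB-/-, and without both that mouse and WT mouse 5, while Hoxb4 stays under 0 and Hoxd8 and Hoxd9 lie around 0.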

How the data were processed

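Poly(A) RNA of whole mandibles was sequenced as single 75-base reads from a directional kit. Per the methods, adaptors were cut with Trim Galore, alignment to mm10 used HISAT, featureCounts gave a count for each gene, and the authors deposited these counts without normalization. The annotation and strand setting are not given in the sources used here. The table also held 1 count column that matches no sample, which was not used, and 1030 rows with a gene ID but no symbol, which stayed in the fit.

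Genotype and replicate came from the labels. All genes were fitted together in edgeR 4.0.16 (R 4.3.3, limma 3.58.1) with filterByExpr (minimum count 10), TMM scaling, no covariate and Benjamini-Hochberg adjustment, called at an adjusted p under 0.05. DESeq2 1.42.0 was an alternative, and the fit was tested on simulated data. SEs were taken from the quasi-likelihood F. Nothing says that the mice came from separate litters, so p-values measure only the spread between these samples. RPKM used the longest matching transcript of each gene in the GRCm38 annotation. Some items are not reported here. No pair of libraries of the same group agreed within sampling noise, and pairs across the groups were not compared.

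Every Hox gene is accounted for, those past the filter with values in every mouse. Of each other list, the genes past the threshold were named, at most the 4 with the largest change in each direction, with a few defining members. The Hox genes and lists were chosen with earlier results of these data known.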

Additional observations from a re-analysis of the deposited data

Results flagged for a closer look

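In 72 groups of 4 or 5 libraries, Dixon's test at its 95% critical value found 7 in which 1 library stood apart, and chance alone gives about 1 in 20. Mouse 4 labelled FcγRIIB-/- had the highest summed level of all Hox genes, 12.6 CPM, where the other 3 mice of its group lay between 9.43 and 9.70 CPM. The same mouse stood apart in the HoxD sum, at 10.2 CPM against 6.91 to 7.18 CPM, and in the sum of the central Hox genes, at 10.7 CPM against 7.50 to 7.99 CPM. All 3 of these sums contain Hoxd4, so they are not separate observations. Mouse 4 was also the lowest of its group in Prrx1, at 104 CPM against 133 to 139 CPM.

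Mouse 3 labelled FcγRIIB-/- was the highest of its group in the sum of the anterior Hox genes, numbered 1 to 3, at 1.02 CPM against 0.507 to 0.526 CPM, and in Psip1, at 154 CPM against 108 to 112 CPM. WT mouse 3 was the lowest of its group in Kdm6a, at 39.0 CPM against 42.8 to 44.1 CPM.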

How the results depend on the processing

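Of the 4 Hox genes tested, 1 was called higher and none lower, where 14% of all genes tested were higher and 19.3% lower. No Hox gene was called higher at an adjusted p under 0.01 (0), with the replicate number as a block (0), where Hoxd4 had a log2 fold change of 0.64 and an adjusted p of 0.0888, or with both mouse 4 labelled FcγRIIB-/- and WT mouse 5 left out (0, Hoxd4 at 0.48, adjusted p = 0.0932), a setting chosen after seeing the data. Leaving out single mice gave 0 to 2 Hox genes higher, the 0 without mouse 4 labelled FcγRIIB-/- and the 2 without mouse 3. With no filter 1 Hox gene, Hoxa3, was lower. The labels do not say whether same-numbered mice share more than a number. The correlations of their deviations from the group means were 0.10, 0.03, -0.11 and -0.07, which cannot exclude a shared batch.

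In the other lists together, 18 genes were higher and 69 lower, beside 14% and 19.3% of all 16329 genes tested. DESeq2 called 29 of the list genes higher and 71 lower, beside 2831 and 3204 over all genes. The stricter threshold of 0.01 left 8 list genes higher and 54 lower, beside 869 and 1763 over all genes. Hox genes with at least 10 counts in a library numbered 7 in WT and 6 in the other group, where 27 and 23 had at least 1.

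Hoxd8 turned negative without WT mouse 4 (-0.0115), mouse 4 labelled FcγRIIB-/- (-0.076) or both that mouse and WT mouse 5 (-0.0476), and Hoxd9 turned positive without WT mouse 1 (0.016), WT mouse 3 (0.012) or mouse 1 labelled FcγRIIB-/- (0.0012). With mice left out Hoxd8 reached 0.12 and Hoxd9 -0.24. Hoxb4 kept its sign and missed the threshold under all 17 alternatives. Of the named genes in other lists, the call was lost under 12 of 16 alternatives for Prrx1, 10 for Pknox1 and Jarid2, 9 for Psip1, 8 for Calcoco1, 6 for Men1 and Dot1l, 5 for Snx10, 3 for Dlx3 and 2 for Skap2 and Ring1, 1 of them in each case being the stricter threshold. The causes were not tested. The depth limits all Hox genes but 4 to a description.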
